A study of Mus musculus with 8 samples.

Results

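Gluconeogenesis is the making of glucose from lactate, alanine and glycerol, which the liver does between meals to hold blood glucose up. The genes described here are enzymes of its committed steps, a transporter and factors that control transcription of the enzymes in the liver. They are not the full set. The list held 10 genes, namely Pcx, G6pc, Fbp1, Fbp2, Pck2, Slc37a4, Ppargc1a, Foxo1, Creb3l3 and Crtc2, and every probe annotated to one of them was taken. That gave 9 of the 16304 probes, 1 for each of 9 genes, so that no gene had a second probe to check it. Pck2, the mitochondrial phosphoenolpyruvate carboxykinase, was not analysed here, since no probe of the table was annotated to it. Pck1, the gene of the cytosolic form, was not on the list.

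The cells were primary hepatocytes, liver cells freed with collagenase from male C57Bl6/J mice and kept in culture. The metformin group held 4 wells treated with 500 µM metformin, and the control group held 4 wells without it, both read at 24 h. Metformin is a biguanide that lowers blood glucose in type 2 diabetes, and less glucose output by the liver is part of its known action. Each well gave 1 Illumina bead array of total RNA, on which a probe reports 1 transcript sequence as a log2 intensity. Whether the wells of a group go back to separate animals is not stated, so that the spread behind each p-value may be technical. The medium, and whether glucagon, insulin or other hormones were in it, are not given in the sources used here.

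Pyruvate first becomes oxaloacetate by pyruvate carboxylase in mitochondria, and oxaloacetate then becomes phosphoenolpyruvate. After a stretch that runs glycolysis backwards, fructose-1,6-bisphosphatase and then glucose-6-phosphatase remove phosphate and release glucose. In fasting, glucagon acts through cAMP and the coactivator CRTC2, and low insulin lets FOXO1 into the nucleus, and both raise PGC-1alpha (the product of Ppargc1a) and the enzymes.

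Of the 9 genes, 2 rose with metformin, Pcx and Creb3l3, and 1 fell, Fbp2. With the replicate number as a block 1 rose, Pcx, and 1 fell, Fbp2, while Creb3l3 had an adjusted p of 0.0556, and Creb3l3 also lost its call in 6 of the 8 fits that left out 1 array. The other 6 did not pass the threshold, an adjusted p under 0.05 in a limma fit over all 16304 probes. Over all probes 5.64% passed it, 2.72% higher and 2.93% lower. The 3 genes make up 33.3% of the 9, a list that was drawn up with earlier results of these arrays known. The median log2 change was 0.15 over the 9 genes and 0.0032 over all probes. The groups did not overlap for 2 of the 9 genes, Pcx and Fbp2, against 14.6% of all probes. Pcx was the 1 gene with every metformin well above every control well, against 7.1% of all probes, and Fbp2 the 1 with every metformin well below, against 7.46%.

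**Figure D1:**
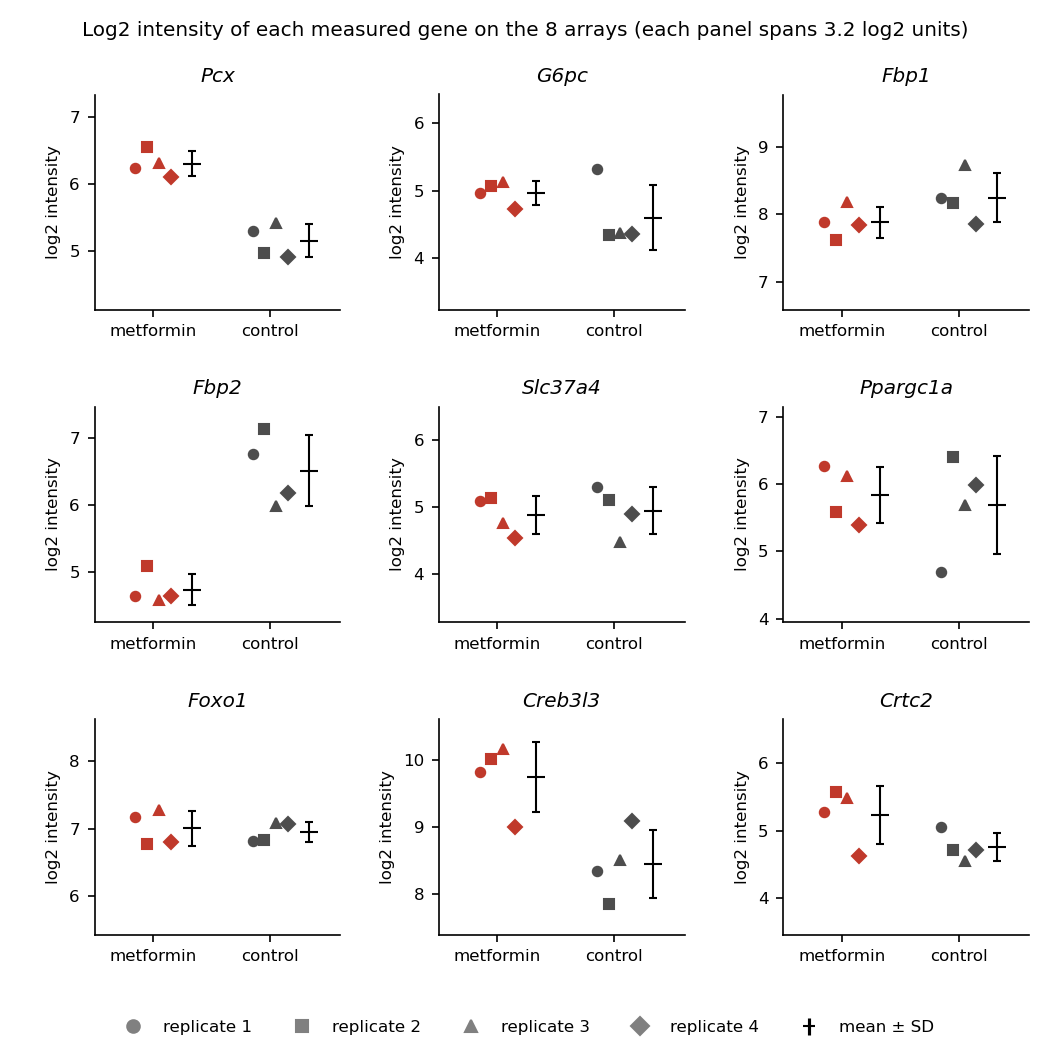
Log2 intensity (vertical axis) of each measured gene in 4 metformin wells, left, and 4 control wells, right, in panels of the same height. Symbols mark the replicate number and bars the mean ± SD. The groups stand apart for Pcx and Fbp2, and a single metformin well, replicate 4, overlaps the control wells for Creb3l3.

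The intensities have to be read within a gene. The probe of Alb, which encodes albumin, a main product of hepatocytes, averaged only 6.05 in metformin wells and 5.65 in control wells, while those of the hepatocyte genes Ttr (transthyretin) and Tf (transferrin) averaged 13.68 and 14.26 in metformin wells. A dim probe on this array is therefore no measure of how much transcript a cell held. The array medians lay between 6.477 and 6.478, and correlations across probes were 0.977 to 0.989 between metformin arrays, 0.969 to 0.986 between control arrays and 0.959 to 0.981 between the groups.

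Pcx encodes pyruvate carboxylase, which commits pyruvate to gluconeogenesis and also refills the citric acid cycle. Its log2 intensity was 6.24, 6.54, 6.31 and 6.11 in metformin wells 1 to 4, against 5.31, 4.98, 5.42 and 4.91 in control wells 1 to 4. Every metformin well lay above every control well, with a gap wider than the range of either group. The means were 6.30 ± 0.18 in metformin wells and 5.15 ± 0.25 in control wells (SD, n = 4 each), a log2 change of 1.15 ± 0.15 (SE). This is a 2.21-fold rise, with a 95% confidence interval of 1.74 to 2.81 and a limma adjusted p of 0.00963. Among all probes it had the 40th smallest p. Between wells of the same replicate number the rise was 0.93, 1.57, 0.89 and 1.19 log2 units. The exact permutation test over the 70 ways to split the wells gave p = 0.0286, the smallest it can give. That test ignores the pairing of wells by number. Turning the signs of the 4 paired differences, a test added after the data were seen, gave an exact p of 0.125, the smallest that 4 pairs allow, so that it cannot reach the threshold. Pcx passed the threshold in each of the 16 other settings that kept its probe, with an adjusted p of up to 0.0354. The rise was 0.87 when an offset of 16 was added to the intensities, since the probe stood low on the scale. The annotated transcript, NM_008797, is one of those listed for Pcx in RefSeq.

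Fructose-1,6-bisphosphatase comes in 2 forms, the liver form from Fbp1 and the muscle form from Fbp2, whose genes are neighbours in the mouse genome. The muscle form fell and the liver form did not pass the threshold. Fbp2 was at 4.65, 5.09, 4.59 and 4.64 log2 units in metformin wells, against 6.77, 7.13, 5.99 and 6.17 in control wells. All metformin wells lay below all control wells, and the control wells were the more widely spread. The means were 4.74 ± 0.23 in metformin wells and 6.51 ± 0.53 in control wells (SD, n = 4 each), a log2 change of -1.77 ± 0.24 (SE). The level in metformin wells was 0.293 of that in control wells, with a 95% confidence interval of 0.201 to 0.428 (limma adjusted p = 0.0105). In control wells the mean stood at the 50.7th percentile of all probes, and in metformin wells at the 19.1st, near the lower end of the scale. The lowest value of any probe was 4.162, so that little room was left for a further fall. Same-numbered wells differed by -2.12, -2.03, -1.39 and -1.53. With the offset of 16 the change was -1.33, and Fbp2 passed in each of the 16 settings that kept its probe, with an adjusted p of up to 0.0374. The exact permutation test gave p = 0.0286 and the sign-flip test within pairs p = 0.125, each the smallest it can give.

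Fbp1 was at 7.89, 7.62, 8.18 and 7.83 log2 units in metformin wells, against 8.24, 8.17, 8.74 and 7.85 in control wells. The groups overlapped, although within each same-numbered pair the metformin well was the lower, by as little as 0.017 in pair 4. The log2 change was -0.37 with a 95% confidence interval of -0.80 to 0.070 (limma adjusted p = 0.299, and 0.150 to 0.555 over 17 settings), so that a fall of the size seen for Fbp2 lay outside the interval. RefSeq lists each of these symbols as an older name of the other gene, and Fbp2 also as one of Khsrp. The probes were therefore assigned by Entrez number, and their transcripts, NM_007994 for Fbp2 and NM_019395 for Fbp1, are those of the genes named here. Of 8 skeletal muscle markers 3 were measured, with a summed intensity of 76.9 to 210 in metformin wells and 63.1 to 114 in control wells. Their changes were 1.57 for Acta1, -0.27 for Myog and 0.063 for Tnni2, with 0 past the threshold in limma and 1, Acta1, at an unadjusted p under 0.05. Acta1 and Myog averaged 4.53 and 4.96 in control wells, near the lower end of the scale, and the part of muscle-type cells in the result for Fbp2 was not tested.

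Of these neighbouring genes Fbp2 passed the threshold and Fbp1 did not, although both were lower with metformin in each same-numbered pair. The part of promoter sequence in this was not tested. The windows around their start sites are shown as a description. They run from 250 bases before to 50 bases after the RefSeq start on GRCm38.p6, at chr13:62858351-62858650 for Fbp2 and chr13:62888233-62888532 for Fbp1, both on the minus strand, and are given 5′ to 3′ in the direction of transcription. Capitals mark TGACG, the short form of the cAMP response element, or CAAAACA, the core of insulin response elements, on either strand.
Fbp2: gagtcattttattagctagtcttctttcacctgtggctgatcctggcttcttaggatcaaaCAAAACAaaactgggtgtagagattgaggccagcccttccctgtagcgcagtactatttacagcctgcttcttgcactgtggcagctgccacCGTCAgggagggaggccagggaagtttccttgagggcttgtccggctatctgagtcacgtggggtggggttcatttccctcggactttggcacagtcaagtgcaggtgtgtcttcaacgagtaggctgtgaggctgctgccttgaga
Fbp1: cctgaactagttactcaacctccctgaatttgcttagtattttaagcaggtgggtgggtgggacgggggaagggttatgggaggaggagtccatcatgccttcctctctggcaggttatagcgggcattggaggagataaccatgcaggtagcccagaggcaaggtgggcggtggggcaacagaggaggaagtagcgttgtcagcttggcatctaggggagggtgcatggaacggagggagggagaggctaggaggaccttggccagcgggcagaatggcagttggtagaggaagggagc
The Fbp2 window held CAAAACA at position -189 and TGACG, read on the other strand, at -97, counted from the start site. The Fbp1 window held none of the letters searched.

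Glucose-6-phosphatase makes free glucose in the endoplasmic reticulum, with G6pc as its catalytic subunit and Slc37a4 as the transporter that brings glucose 6-phosphate in. Neither passed the threshold. G6pc was at 4.96, 5.06, 5.13 and 4.72 log2 units in metformin wells, against 5.32, 4.34, 4.37 and 4.35 in control wells. The metformin wells were all above control wells 2 to 4 and all below control well 1. The log2 change was 0.37 with a 95% confidence interval of -0.12 to 0.87 (limma adjusted p = 0.358). Without control replicate 1 it was 0.62 and the gene passed, with an adjusted p of 0.0343, and over 15 settings the adjusted p ran up to 0.562. The probe's mean stood at the 21.1st percentile of all probes, so that its changes are read near the floor and may be understated. Slc37a4 was at 5.09, 5.13, 4.75 and 4.53 in metformin wells, against 5.30, 5.11, 4.47 and 4.90 in control wells. Its probe also stood low, with a mean at the 25.15th percentile of all probes. The groups covered nearly the same range, with a log2 change of -0.067 and a 95% confidence interval of -0.52 to 0.38. The sign of that change turned in 3 settings, without control replicate 1 (0.051) or metformin replicate 4 (0.048) and with array weights (0.055).

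The G6pc promoter is shown as the textbook example of a gluconeogenic promoter under cAMP and insulin control. The window lies on GRCm38.p6 at chr11:101367466-101367765 on the plus strand, with the same letters in capitals.
G6pc: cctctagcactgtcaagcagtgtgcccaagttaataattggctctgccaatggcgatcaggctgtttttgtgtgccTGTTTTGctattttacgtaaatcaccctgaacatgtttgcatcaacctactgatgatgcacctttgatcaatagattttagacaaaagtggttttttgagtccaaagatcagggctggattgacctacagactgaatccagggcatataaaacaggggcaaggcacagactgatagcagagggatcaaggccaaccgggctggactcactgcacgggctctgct
It held CAAAACA on the minus strand, as TGTTTTG, at position -174, and no TGACG. Only exact matches to a few short strings of letters were searched. Other forms of cAMP and insulin response elements are therefore not marked, and their absence cannot be read from the window.

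Creb3l3 encodes CREBH, a transcription factor held in the endoplasmic reticulum membrane of hepatocytes, which is cut free by the site 1 and site 2 proteases and drives genes of the fasted liver. Its log2 intensity was 9.814, 10.005, 10.154 and 8.995 in metformin wells, against 8.343, 7.853, 8.508 and 9.087 in control wells. Of the 4 metformin wells 3 lay above every control well, while metformin replicate 4 lay just below control replicate 4, so that the groups overlapped. The means were 9.74 ± 0.52 in metformin wells and 8.45 ± 0.51 in control wells (SD, n = 4 each), a log2 change of 1.29 ± 0.30 (SE). This is a 2.45-fold rise with a 95% confidence interval of 1.54 to 3.90 (limma adjusted p = 0.0374). Same-numbered wells differed by 1.47, 2.15, 1.65 and -0.092.

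The call for Creb3l3 was the least firm of the 3. With the replicate number as a block its adjusted p was 0.0556, the exact permutation test gave p = 0.0571, and the exact sign-flip test within pairs p = 0.25. The call was lost when any of 6 of the 8 arrays was left out, with adjusted p of 0.0644, 0.104 and 0.116 without metformin replicates 1, 2 and 3, and of 0.0613, 0.0876 and 0.0861 without control replicates 1, 2 and 3. It was 0.0215 without metformin replicate 4 and 0.0407 without control replicate 4, the wells that overlap. The change itself stayed between 1.10 and 1.54 in these 8 fits.

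**Figure D2:**
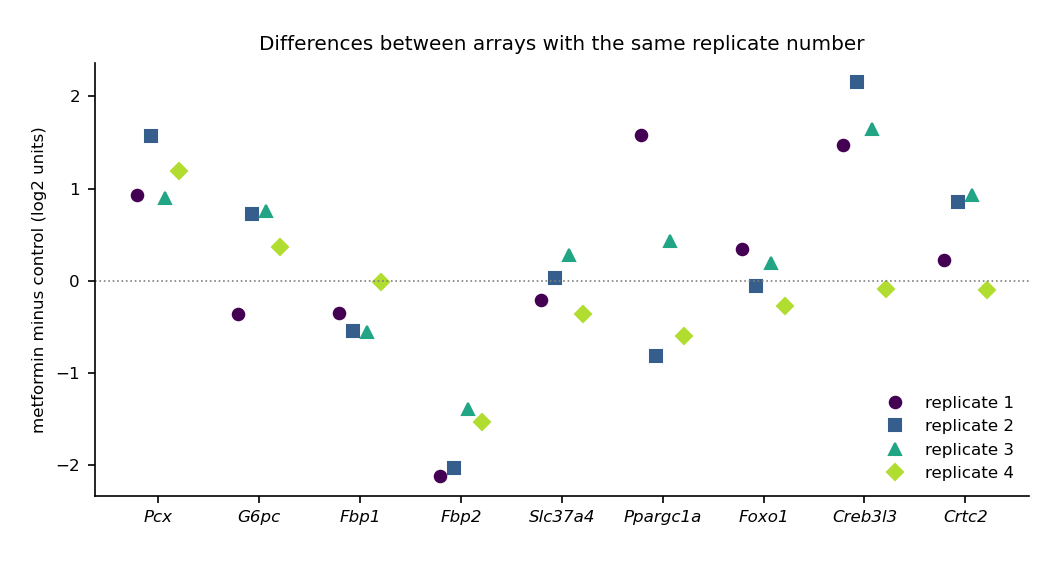
Difference in log2 intensity (vertical axis), metformin well minus the control well with the same replicate number, for each gene. All 4 differences are positive for Pcx and negative for Fbp1 and Fbp2, while for Creb3l3 those of replicates 1 to 3 lie between 1.47 and 2.15 and that of replicate 4 is -0.092.

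RefSeq gives 2 start sites for Creb3l3. The window shown, at chr10:81092542-81092841 on the minus strand of GRCm38.p6, is the one of the pair that held letters searched here, and the array does not tell which start was used.
Creb3l3: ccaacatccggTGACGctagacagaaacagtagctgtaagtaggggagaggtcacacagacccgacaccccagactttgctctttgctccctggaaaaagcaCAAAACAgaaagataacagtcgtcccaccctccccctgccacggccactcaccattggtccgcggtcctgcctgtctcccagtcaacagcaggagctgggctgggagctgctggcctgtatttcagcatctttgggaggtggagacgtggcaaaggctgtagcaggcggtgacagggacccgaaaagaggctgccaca
It held TGACG at position -239 and CAAAACA at -148. The 2 windows of Pcx, which are not shown, held none of the letters searched. Across the 9 genes with a window in the table, Pck2 included, TGACG or its reverse complement CGTCA stood in 5 of 13 windows, which belong to 4 genes and of which those of Slc37a4 overlap each other, against 20.8% of all 32851 windows. CAAAACA or TGTTTTG stood in 4 of 13, against 6.28% of all. The full palindrome TGACGTCA, which contains the shorter letters, and the FOXO core GTAAACA, searched also as its reverse complement TGTTTAC, stood in 0 of the 13, against 1.79% and 3.65% of all windows. A match in these windows is a description of the sequence and not a bound site.

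The other regulators did not pass. Crtc2, the coactivator that joins CREB when glucagon is high, was at 5.28, 5.57, 5.48 and 4.62 log2 units in metformin wells, against 5.05, 4.72, 4.55 and 4.72 in control wells. As for Creb3l3, metformin wells 1 to 3 lay above every control well and well 4 did not. The mean of the Crtc2 probe stood at the 27.2nd percentile of all probes, low on the scale. The log2 change was 0.48 with a 95% confidence interval of 0.0084 to 0.95 and an unadjusted p of 0.0467 (limma adjusted p = 0.210). Without metformin replicate 4 the change was 0.68 and the gene passed, with an adjusted p of 0.0449, and over its 16 settings the adjusted p ran up to 0.419. Unadjusted p under 0.05 were found for 4 of the 9 genes, against 23% of all probes.

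Ppargc1a, whose product PGC-1alpha coactivates HNF4A and FOXO1 on gluconeogenic promoters, was at 6.27, 5.59, 6.11 and 5.39 in metformin wells, against 4.69, 6.41, 5.68 and 5.98 in control wells. Its control wells spanned 1.72 log2 units, the widest range of the 9 genes in either group. The log2 change was 0.15 with a 95% confidence interval of -0.62 to 0.91, an interval that holds both a fall to 0.653 of the control level and a 1.88-fold rise. Without control replicate 1 the change was -0.18. Foxo1, the insulin-restrained forkhead factor, was at 7.17, 6.77, 7.28 and 6.80 in metformin wells, against 6.82, 6.83, 7.09 and 7.07 in control wells. Its change of 0.053 had the narrowest interval of the 9, from -0.28 to 0.39, and turned to -0.039 without metformin replicate 3 and to -0.00037 without metformin replicate 1. FOXO1, CRTC2 and CREBH are controlled to a large part by phosphorylation, cleavage and place in the cell, which these arrays did not measure.

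**Figure D3:**
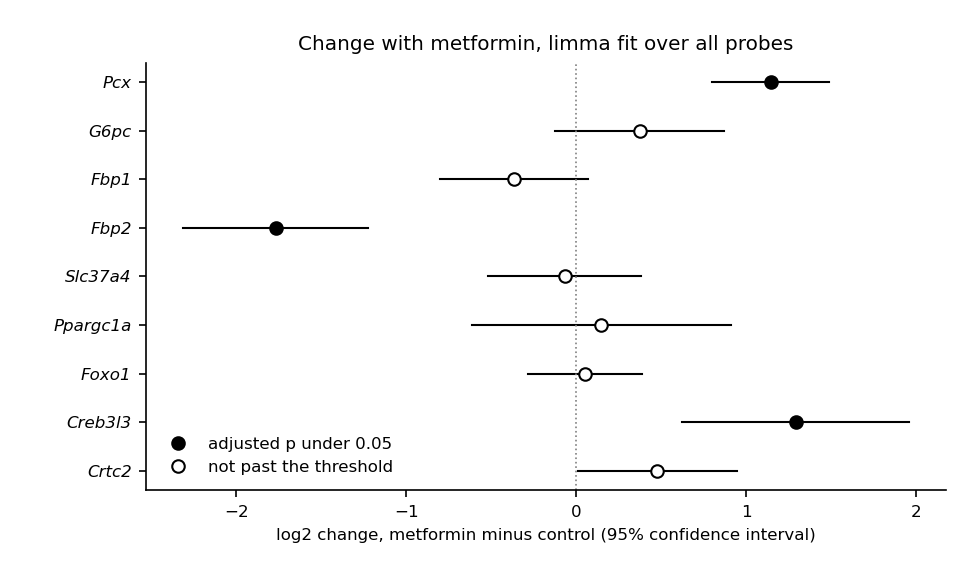
Log2 change, metformin minus control (horizontal axis), of each gene with its 95% confidence interval. Filled circles passed an adjusted p under 0.05. Pcx (1.15) and Creb3l3 (1.29) lie to the right of 0, Fbp2 (-1.77) lies to the left, and the intervals of all others except Crtc2, which barely clears it, include 0.

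Some wells were the lowest or highest of their group for several of these genes. Metformin replicate 4 was the lowest of the 4 metformin wells for 6 of the 9 genes, Pcx, G6pc, Slc37a4, Ppargc1a, Creb3l3 and Crtc2, and the highest for 0. Control replicate 1 was the highest control well for G6pc, Slc37a4 and Crtc2 and the lowest for Ppargc1a and Foxo1. The 9 genes share these arrays, so that such a count does not come from independent measurements. Some well is the lowest of its group for every gene, and the same count over all probes was not made.

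**Figure D4:**
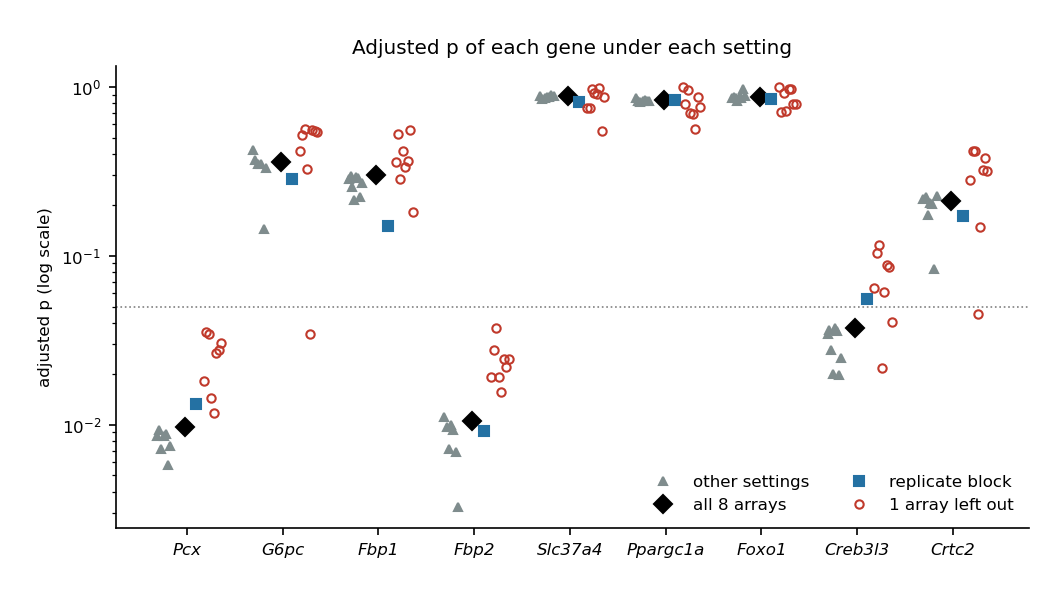
Adjusted p (vertical axis, log scale) of each gene with all 8 arrays, with the replicate block, with 1 array left out in turn and under the other settings, with 0.05 dotted. Pcx and Fbp2 stay below 0.05 throughout, Creb3l3 lies on both sides of it, and G6pc and Crtc2 each cross it once, when a single array is left out.

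The probes whose pattern over the 8 arrays was most like that of a gene past the threshold are given as a description, since treatment and array are shared by all points. For Pcx these were Nlrx1 (Pearson r = 0.987) and Sepsecs (0.985), for Fbp2 the replication helicase gene Mcm2 (0.983) and Ccdc71 (0.974), and for Creb3l3 Ercc6l2 (0.986) and Krcc1 (0.981). They are the closest among the probes of other named genes, with symbols of the Rik, Gm and LOC kinds also left out. High values arise easily when so many probes are ranked on 8 arrays.

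Around the listed genes, 10 lists with 130 genes of substrate supply, the opposing side and regulation were followed, of which 105 were measured, each by its brightest probe. Of these 4 were higher and 1 was lower past the threshold, which is 4.76%, against 5.94% of all 10944 genes taken by their brightest probe (2.98% higher and 2.96% lower). The median log2 change was 0.035 over the 105 and 0.010 over all genes. The share past the threshold was thus near the background. The number past it was 0 without metformin replicate 2 or 3 or control replicate 2 or 3, and 1 without control replicate 4. Over all probes these same fits called 183 to 380, against 920 with all 8 arrays. In the limma fit of all 8 arrays 23 of the 105 genes had an unadjusted p under 0.05, as had 23% of all probes.

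In the substrate entry list 1 of 16 measured genes rose and 0 fell, with a median change of -0.12. That gene was Gpt, alanine aminotransferase, which turns alanine into pyruvate, the substrate of pyruvate carboxylase. Gpt was at 7.92, 7.38, 7.90 and 7.23 in metformin wells, against 6.85, 6.45, 6.80 and 6.46 in control wells, all metformin wells above all control wells (1.96-fold, limma adjusted p = 0.0235). It passed in 3 of the 8 fits without 1 array. Gpt2, the other alanine aminotransferase gene of the list, had a change of -0.083 (limma adjusted p = 0.916). With the replicate block the citrate carrier Slc25a1, named after its value was seen, was higher as well (log2 change 0.82, adjusted p = 0.0302 with the block and 0.0640 without), and its dimmer probe passed without the block (0.62, adjusted p = 0.0401). Among the enzymes shared with glycolysis 0 of 5 passed in limma and 2, at an unadjusted p under 0.05, were nearest, Pgam1, phosphoglycerate mutase, at -0.37 and Pgk1, phosphoglycerate kinase, at 0.56.

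Of 11 measured genes of the opposing, glycolytic side, which are kinases of glucose, fructose 6-phosphate and pyruvate and the glucokinase inhibitor Gckr, 1 rose and 0 fell (median 0.089). It was Pfkfb4, a bifunctional enzyme that makes and breaks fructose 2,6-bisphosphate, the signal that blocks fructose-1,6-bisphosphatase. Pfkfb4 was at 5.79, 6.33, 6.29 and 5.66 in metformin wells, against 5.41, 4.57, 5.14 and 5.04 in control wells (1.97-fold, limma adjusted p = 0.0316), and passed in 3 of the 8 fits without 1 array. Of the relatives of G6pc and Slc37a4, 3 were measured, G6pc3, Slc37a2 and Slc37a3, with changes from -0.18 to -0.15 at their brightest probes, 0 past the threshold in limma and 0 with an unadjusted p under 0.05. The sign for G6pc3 turned with the probe, its 2 probes giving -0.15 and 0.45.

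**Figure D5:**
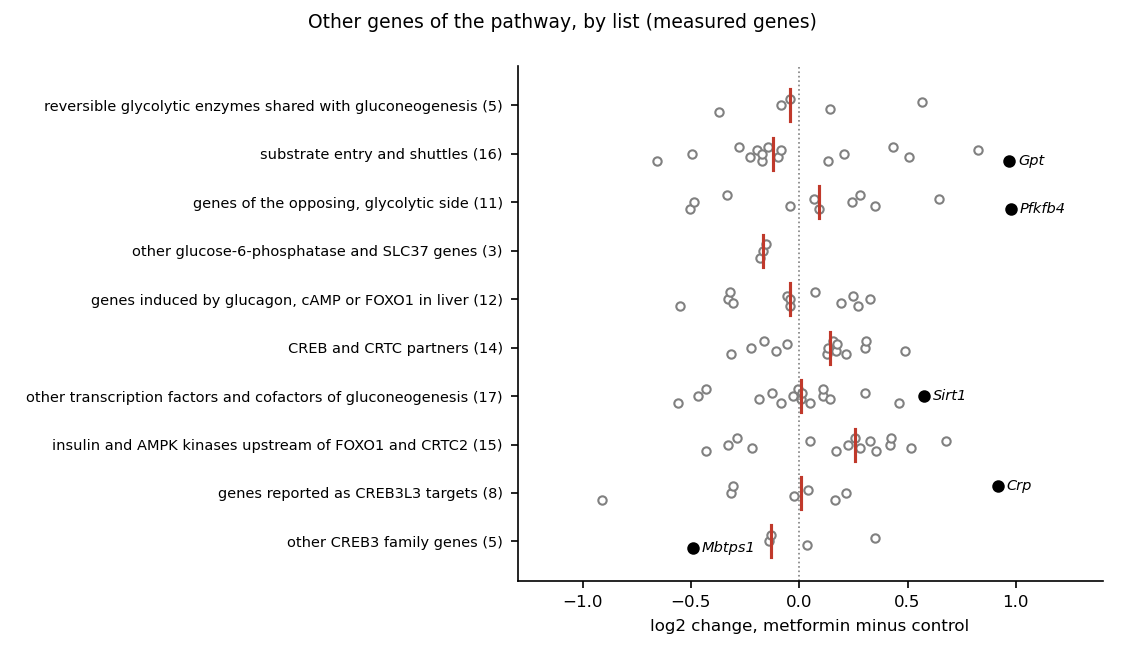
Log2 change, metformin minus control (horizontal axis), of each measured gene of the 10 lists by its brightest probe, with the number measured in brackets. Filled and named points passed an adjusted p under 0.05, and red bars mark the list medians, which lie between -0.17 and 0.26.

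Of the genes that glucagon, cAMP or FOXO1 are known to induce in liver 12 were measured. Limma called 0 of them, also at an unadjusted p under 0.05, with 5 positive and 7 negative changes and a median of -0.044. The smallest p were those of Crem, a cAMP-induced repressor (-0.31, with 4 probes from -0.31 to 0.47), and Btg1 (0.27, with 4 probes from 0.048 to 0.27). Igfbp1, an insulin-repressed FOXO1 target, had a change of -0.55 ± 0.28, and Pdk4 one of -0.044 ± 0.20 (SE). Among 14 CREB and CRTC partners limma called 0, and at an unadjusted p under 0.05 there was 1, Ogt, the O-GlcNAc transferase, at 0.49, with 3 probes from -0.21 to 0.49. Next came Prkaca, a catalytic subunit of protein kinase A, at 0.30, with 2 probes from 0.0078 to 0.30.

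Of 17 other transcription factors and cofactors 1 rose and 0 fell (median 0.0097). Sirt1, an NAD-dependent deacetylase that acts on PGC-1alpha and FOXO1, was at 7.61, 7.85, 8.05 and 7.56 in metformin wells, against 7.16, 7.23, 7.02 and 7.34 in control wells (1.49-fold, limma adjusted p = 0.0457, and 0.0689 with the replicate block). It passed in 2 of the 8 fits without 1 array. Hnf4a, the master regulator of hepatocyte genes, had a change of 0.11 ± 0.12, and Cebpb, an activator of the Pck1 promoter, one of 0.46 ± 0.17 (SE). Nearer to the threshold were Foxa2, a forkhead factor of liver genes, at -0.47 ± 0.13 (limma adjusted p = 0.0612), and Prmt5, an arginine methyltransferase, at -0.56 ± 0.16 (limma adjusted p = 0.0672), both with every metformin well below every control well. These values are those of their brightest probes. The 2 probes of Foxa2 ran from -0.47 to -0.052 and the 3 of Prmt5 from -0.56 to -0.15. Of 15 kinases and adaptors of insulin and AMPK signalling 0 passed in limma and the median was 0.26. At an unadjusted p under 0.05, which 23% of all probes had, there were 6, in both directions. Pik3ca, a catalytic subunit of phosphoinositide 3-kinase, had a change of 0.42, and the kinase gene Akt1 and the AKT-binding Trib3 had 0.33 and 0.35. The AMPK subunit genes were split, with Prkag2 at 0.68, Prkag1 at -0.43 and Prkab1 at -0.29 among these 6. Outside the 6 were Prkaa2 at 0.52 and Prkab2 at 0.23.

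Of 11 genes reported to be driven by CREBH 8 were measured. Of these 1 rose and 0 fell, with 4 positive and 4 negative changes from -0.91 to 0.92 and a median of 0.0085. The gene that rose was Crp, C-reactive protein, at 10.02, 10.33, 10.11 and 9.97 in metformin wells, against 9.05, 8.71, 9.38 and 9.64 in control wells (1.89-fold, limma adjusted p = 0.0295). It passed in 4 of the 8 fits without 1 array. Apoa4, an apolipoprotein gene often used as a CREBH readout, had a change of 0.17 ± 0.52 (SE). Lowest was Hamp, at -0.91 ± 0.46 (SE, limma adjusted p = 0.268). Apoc2 had a change of -0.32 at its brightest probe, with an unadjusted p under 0.05, and its 2 probes ran from -0.32 to 0.42. Of 5 measured CREB3 relatives and processing proteases 1 fell, Mbtps1, the site 1 protease that cuts CREBH, at 7.27, 7.04, 7.08 and 7.34 in metformin wells and 7.65, 7.69, 7.59 and 7.76 in control wells. Its level in metformin wells was 0.713 of that in control wells (limma adjusted p = 0.0409, and 0.0543 with the block), its 3 probes ran from -0.49 to 0.089, and it passed in 1 of the 8 fits without 1 array.

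Markers of the cells that such cultures can hold were followed beside these genes. Of 10 hepatocyte markers 9 were measured, limma called 0 (1 at an unadjusted p under 0.05), and their summed intensity was 42400 to 53300 in metformin wells and 41800 to 45900 in control wells. Of 8 bile duct markers 4 were measured, Krt19, Krt7, Sox9 and Krt23, with a sum of 847 to 1520 in metformin wells and 437 to 784 in control wells, which do not overlap. All 10 sinusoidal endothelial markers were measured and summed to 909 to 3170 in metformin wells and 849 to 1960 in control wells. Each of the 10 had a positive change (median 0.49, with Lyve1 at 1.28 and Tek at 0.85), as had each of the 4 bile duct markers (median 1.01), and 6 of the 7 Kupffer cell markers had a negative one (median -0.16). In limma 0 markers of these lists passed without the block. At an unadjusted p under 0.05, which 23% of all probes had, there were 2 endothelial, 3 bile duct, 1 stellate cell and 0 Kupffer cell markers. The sums of the 7 measured of 10 Kupffer cell markers were 328 to 922 in metformin wells and 398 to 1250 in control wells, and those of the 8 measured of 10 stellate cell markers were 2540 to 4820 in metformin wells and 2410 to 4390 in control wells. With the replicate block 2 bile duct and 3 endothelial markers were higher and 1 Kupffer cell marker was lower. In that fit 1106 of all 16304 probes passed, 562 higher and 544 lower. The part of these cells in the changes above was not tested, and in such bulk samples fewer cells of a type and less RNA per cell cannot be told apart.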

How the data were processed

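Transcripts of 8 cultures of primary mouse hepatocytes, 4 with metformin and 4 without, were read on Illumina bead arrays. The log2 intensities deposited by the authors were used as they stood, 16304 probes in 8 columns. The tools named, per the submitters' processing notes, are limma 3.26.9 and R 3.2.3, without a role. The background correction, normalization and probe filter are not given in the sources used here. Detection p-values were not used here, and 8 arrays limit the precision.

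Probes were named by the platform's annotation and brought up to date through RefSeq's GRCm38.p6 genes by Entrez number, which matched 15294 of the 15301 named probes. The other 1003 are unnamed here. Promoter windows are from RefSeq on that build.

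Metformin minus control was fitted for every probe with limma 3.58.1 (lmFit, eBayes) in R 4.3.3 on all 8 arrays, with two-sided p-values adjusted by Benjamini-Hochberg over the 16304 probes and a threshold of 0.05. The exact permutation tests are two-sided and unadjusted. The script was tested on simulated data. The genes, lists and tests were chosen with earlier results of these data known. Named genes are all measured members and, of each list, up to 4 past the threshold by smallest p or, where none passed, the 2 with the smallest p. Others named were chosen after their values were seen.

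Deviations from the group means of same-numbered arrays correlated at 0.268, 0.249, 0.131 and 0.201, the highest mean of the 24 pairings. All being over 0.1, the numbers were taken to pair the wells, on the data alone. The replicate block is an alternative, given where it changed a call. Other alternatives were an offset of 16 on the intensities, quantile normalization, leaving out the lowest 25% or the lower 50% of probes, 1 probe or the mean probe per gene, array weights, trend and robust eBayes, and leaving out each array.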

Additional observations from a re-analysis of the deposited data

Results flagged for a closer look

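In groups of 4 wells, a well was singled out when its gap to the nearest other took up more than 0.829 of the group's range. This was applied to 96 groups, those of the 9 genes and of most genes named from the pathway and marker lists. Chance picks about 5% of such groups, and 4 were picked. The G6pc value of control replicate 1 was 5.318, against 4.34 to 4.37 in the other control wells, and the gene passed the threshold without it. The Fbp2 value of metformin replicate 2 was 5.093, against 4.59 to 4.65 in the other metformin wells, and still below the lowest control well. The Ogt value of metformin replicate 4 was 8.535, against 8.75 to 8.79 in the other metformin wells. The Hnf4a value of control replicate 2 was 9.794, against 10.13 to 10.18 in the other control wells.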

How the results depend on the processing

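Pcx and Fbp2 kept their direction and their call in all 16 limma alternatives that kept their probes. Of the 9 genes 3 passed with all arrays, 2 with the replicate block, which took away the call of Creb3l3 (adjusted p = 0.0556), 2 to 4 with 1 array left out, and 1 of the 3 left when the lower 50% of probes was removed, which took out the probes of Pcx and Fbp2. Creb3l3 also missed in 6 of the 8 fits without 1 array and in the exact permutation test (p = 0.0571). Among genes that did not pass, the sign turned for Slc37a4 (0.055 with array weights, 0.048 without metformin replicate 4, 0.051 without control replicate 1), Ppargc1a (-0.18 without control replicate 1) and Foxo1 (-0.00037 without metformin replicate 1, -0.039 without metformin replicate 3). The 920 probes past the threshold, 443 higher and 477 lower, became 1664 with array weights (802 and 862), 1106 with the replicate block (562 and 544, of which 745 were shared with the fit without it), and 183 to 1086 with 1 array left out (69 to 521 higher, 107 to 565 lower), where fewer samples were fitted. Of the 105 listed pathway genes 5 passed, 9 with array weights and 0 to 6 with 1 array left out. Among the 9 genes and those named from the lists, the replicate block changed no call besides those of Creb3l3, Sirt1, Mbtps1, Slc25a1 and the marker genes counted above. The cause of these changes was not tested. The exact sign-flip test within pairs, added after the data were seen, cannot go below p = 0.125. With 1 array left out the change ran from -0.22 to 0.051 for Slc37a4, from -0.18 to 0.39 for Ppargc1a and from -0.039 to 0.13 for Foxo1. Dim probes, such as those of G6pc, Slc37a4 and Crtc2, limit what a change can show.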
